A study of Mus musculus with 12 samples.

Results

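The olfactory bulb of adult mice lacking RasGRF2 was compared with that of wild-type mice, 3 arrays against 3, over every gene the arrays could name. The members are the 19938 genes with a probe set of a single gene symbol, out of 35556 probe sets deposited, and where a gene had several probe sets the one with the highest mean over the 12 arrays of the series stood for it. The bulb arrays are 6 of these 12, and the other 6 hold hippocampus. The knockout group consisted of adult C57BL/6 mice labelled GRF2 KO (animals 4, 5 and 6 of the titles), and the control group of adult C57BL/6 mice labelled WT (animals 1, 2 and 3). Both groups lived in a conventional facility with exposure to common pathogens, and neither was treated. The sources used here do not give which exons were deleted, whether the controls were littermates, how far the mutation was backcrossed or the age in weeks, and each group rests on 3 animals. The series title concerns stem cells and early neuronal differentiation in the adult brain, and the bulb is a tissue that receives adult-born neurons.

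RasGRF2 is a guanine nucleotide exchange factor that calcium and calmodulin switch on downstream of glutamate receptors. It loads GTP onto Ras, which feeds the ERK kinase cascade and through it the transcription of activity-induced genes, and it also acts on Rac, which shapes the actin skeleton. In the olfactory bulb sensory axons from the nose contact mitral and tufted cells in glomeruli, and inhibitory periglomerular and granule cells, many of them born in adulthood from stem cells of the subventricular zone, shape the output.

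The 6 bulb arrays were alike in scale, with medians between 6.931 and 6.955 on the log2 scale and correlations of 0.9895 to 0.9932 across probe sets. The tissue label was checked against markers, named here outside the rule for genes. Th, the rate-limiting enzyme of dopamine synthesis in periglomerular cells, read 10.9 to 11.18 in the bulb arrays against 6.05 to 6.74 in hippocampus. Cdhr1, a cadherin of mitral and tufted cells, read 10.85 to 11.01 against 6.85 to 6.99. Conversely Neurod6, a factor of hippocampal pyramidal neurons, read 6.07 to 6.44 in bulb against 10.07 to 10.51. Of 24 hippocampal neuron genes, 19 lay lower in every bulb array than in any hippocampal array. Of 28 bulb granule cell genes, 20 lay higher and 4 lower. The other bulb lists were less specific, with 18 of 36 interneuron fate factors higher and 7 lower, 14 of 31 mitral and tufted cell genes higher and 9 lower, and 8 of 25 periglomerular genes higher and 4 lower. Rasgrf2 itself read 9.52, 9.52 and 9.47 in wild-type bulb and 9.33, 9.35 and 9.43 in knockout bulb. The knockout values lay under the wild-type values without overlap, yet the difference of -0.14 (SE 0.0772) did not pass the test (limma adjusted p = 0.532), so in bulb the genotype rests on the label. In hippocampus of these animals the difference was -0.58 (limma adjusted p = 0.00197). Whether the probe set lies in the deleted stretch is unknown.

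A gene was called where limma's Benjamini-Hochberg adjusted p over all 19938 genes was under 0.05. By this rule 82 genes were called (0.411% of those tested), 37 higher in knockout (0.186%) and 45 lower (0.226%). The 3 values of one group lay apart from the 3 of the other in all 82. Such separation is common at 3 against 3, and 17.1% of all genes showed it, 8.22% with knockout higher and 8.87% with knockout lower. The median difference over all genes was -0.016 on the log2 scale, and 55.5% of genes lay below 0. Of the called genes 7 changed more than 2-fold: Pla2g4e and Cryab rose, and Mid1, Pttg1, Tnfaip6, Fosb and Slc38a6 fell. Of 143 lists and families 41 held a called gene, the most in 1 list was 6, and 37 of the 82 were in no list. The lists were chosen with earlier results known, so these counts do not measure how calls spread over functions. The name patterns of the alpha protocadherin, gamma protocadherin and histone families matched none of the 19938 genes. Probe sets without a single gene symbol were not searched, so these families were not examined. The calls depended on single arrays. Leaving out wild-type replicate 1 or 2 left 38 or 40 genes, and leaving out knockout replicate 4, 5 or 6 left 41, 50 or 35. The count without wild-type replicate 3 was 105, of which 50 were among the 82. Of the 82, 27 were called under each of 17 alternative settings that tested them.

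**Figure D1:**
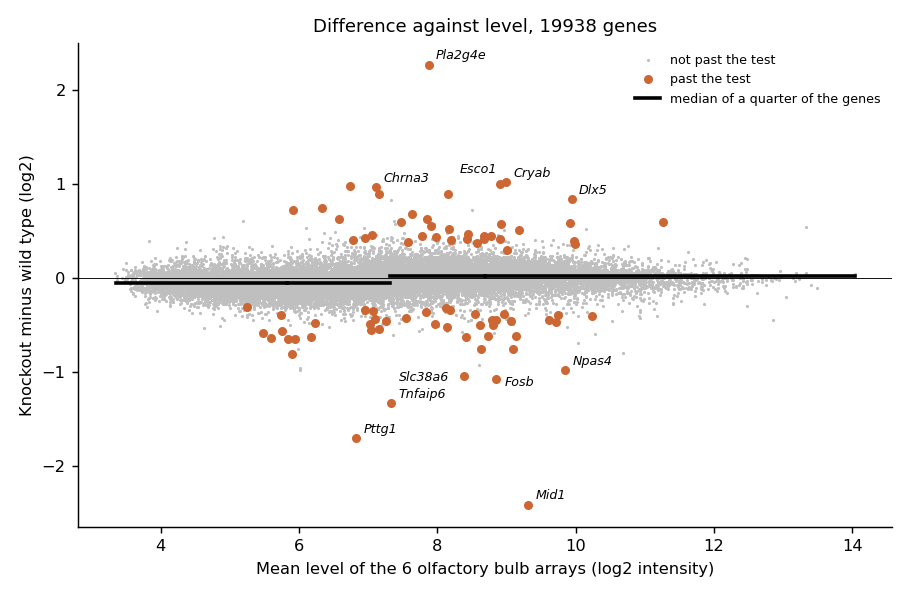
Knockout minus wild type in the olfactory bulb (vertical axis, log2) against the mean level of the 6 bulb arrays (horizontal axis, log2 intensity), 1 point per gene. The 82 genes past the test are in orange, and the black bars, medians of 4 equal level classes, lie at -0.056 and -0.052 in the dimmer classes and at 0.024 and 0.018 in the brighter ones.

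The difference varied with the level of a gene, which bears on every family described below. Among the 4985 dimmest genes, at a mean level of 3.35 to 5.83, the median difference was -0.056 and 72.0% lay below 0. In the next of 4 equal level classes it was -0.052. In the brighter classes, above 7.31, the medians were 0.024 and 0.018, with 41.7% and 41.5% below 0. Against the wild-type mean the knockout arrays stood at -0.041, -0.046 and -0.08 in the dimmest class and at 0.031, 0.0071 and 0.015 in the brightest. The wild-type arrays stood at -0.041, 0.014 and 0.023 in the dimmest class and at -0.0099, 0.019 and -0.0073 in the brightest, so wild-type replicate 1 lay with the knockouts at the dim end. After cyclic loess scaling, an alternative added after the data were seen, the class medians were -0.019, -0.014, 0.01 and -0.0025. Where a family median is printed and lies more than a few hundredths from 0, the median with that scaling therefore stands beside it. Some lists are given as counts alone, which this trend with level also touches.

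Genes that neurons transcribe in response to activity were the list with the most calls. Of 26 activity-induced transcription factors, 6 fell and none rose, 24 of the 26 lay below 0, and the median was -0.11 (-0.13 with cyclic loess), against -0.016 over all genes. In 11 of the 26 every knockout value lay under every wild-type value. Over all genes 0.226% were called lower, 55.5% lay below 0 and 8.87% had every knockout value under every wild-type value. Of 50 activity-induced effector genes, whose products act at synapses and in signalling, 1 fell and 37 lay below 0, with a median of -0.071 (-0.084 with cyclic loess). The factors are DNA-binding proteins or cofactors that act on later genes, and CREB, which binds the cAMP response element, is one of the regulators that activity switches on.

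The upstream sequences of the factors that fell are shown to let their response elements be seen beside the values. Of the 6, 5 had an entry among the RefSeq promoters of build GRCm38.p6. The 250 bases before each annotated start were searched on both strands for the cAMP response element TGACGTCA, its core TGACG, the EGR element GCGGGGGCG and, by name, the CArG box of serum response factor. The whole cAMP element contains the core on both strands. Each sequence runs 5′ to 3′ toward the gene's start, and capitals mark every match on either strand.
Fosb: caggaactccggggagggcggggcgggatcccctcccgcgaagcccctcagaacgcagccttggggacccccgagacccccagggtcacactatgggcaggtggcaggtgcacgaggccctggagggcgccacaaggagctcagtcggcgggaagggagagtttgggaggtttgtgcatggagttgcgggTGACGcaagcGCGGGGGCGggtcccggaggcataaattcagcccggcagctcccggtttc
Npas4: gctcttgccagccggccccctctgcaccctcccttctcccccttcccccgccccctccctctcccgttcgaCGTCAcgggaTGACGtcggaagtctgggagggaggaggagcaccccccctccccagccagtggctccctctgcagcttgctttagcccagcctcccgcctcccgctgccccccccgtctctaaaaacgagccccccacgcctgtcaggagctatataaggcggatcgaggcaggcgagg
Btg2: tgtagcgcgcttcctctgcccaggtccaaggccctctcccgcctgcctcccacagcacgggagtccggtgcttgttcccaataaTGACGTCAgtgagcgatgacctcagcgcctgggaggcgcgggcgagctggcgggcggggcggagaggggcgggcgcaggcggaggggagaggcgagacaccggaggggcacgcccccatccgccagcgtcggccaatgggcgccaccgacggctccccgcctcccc
Egr4: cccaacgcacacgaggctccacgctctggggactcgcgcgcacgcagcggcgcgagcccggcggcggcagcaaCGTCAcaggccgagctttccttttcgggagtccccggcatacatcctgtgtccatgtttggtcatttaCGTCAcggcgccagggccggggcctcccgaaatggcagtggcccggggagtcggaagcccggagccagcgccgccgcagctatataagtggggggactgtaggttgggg
Nr4a2: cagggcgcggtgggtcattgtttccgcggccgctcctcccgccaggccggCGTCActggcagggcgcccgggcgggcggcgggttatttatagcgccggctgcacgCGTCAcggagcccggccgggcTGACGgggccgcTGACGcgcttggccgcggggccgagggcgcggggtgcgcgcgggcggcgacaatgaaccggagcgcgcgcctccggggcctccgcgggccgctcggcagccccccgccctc
These windows lie on the minus strand at chr7:19310046-19310295 for Fosb, chr19:4989972-4990221 for Npas4, chr1:134079156-134079405 for Btg2, chr6:85513590-85513839 for Egr4 and chr2:57124004-57124253 for Nr4a2. All 5 held the core, with 1 match in Fosb, 2 each in Npas4, Egr4 and Btg2, and 4 in Nr4a2, against 17.8% of all 32851 promoters of the table. The matches in Btg2 form 1 whole element, which 1.55% of all promoters held and no other of the 5 did. Fosb held the EGR element, found in 2.57% of promoters, and none of the 5 held a CArG box, found in 1.47%. Over the whole lists the core was present in 15 of the 20 factors with an entry and in 20 of 37 effector genes, and the whole element in 2 of the 20 and 6 of the 37. In these list counts a gene held an element where any of its promoter entries did. The percentages are shares of single promoters, so the 2 measures are unlike. Letters in a window describe the sequence and show no binding.

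Fosb, a subunit of the AP-1 factor, read 9.30, 9.20 and 9.65 in wild-type bulb and 8.15, 8.68 and 8.10 in knockout. The difference of -1.07 (SE 0.209, limma adjusted p = 0.0415) was 2.11-fold, and knockout replicate 5 stood closest to wild type. Npas4, a factor that neurons induce on calcium entry, read 10.31, 10.17 and 10.54 against 9.34, 9.65 and 9.09, and Btg2, an antiproliferative cofactor, 9.34, 9.40 and 9.67 against 8.62, 8.98 and 8.56. In all 3 genes wild-type replicate 3 was the highest array and knockout replicate 5 the highest of the knockouts. Egr3 and Egr4, zinc finger factors, fell by 0.50 and 0.49, and Nr4a2, an orphan nuclear receptor that dopamine neurons also need, fell by 0.47 from 9.89, 9.93 and 10.02 to 9.48, 9.56 and 9.38. Among the members that did not pass, Nr4a3 differed by -0.44 (limma adjusted p = 0.149), Fos by -0.56 (0.304) and Fosl2 by -0.22 (0.418), and Fos read 8.86 in wild-type replicate 3 against 8.26 and 8.14 in the others.

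**Figure D2:**
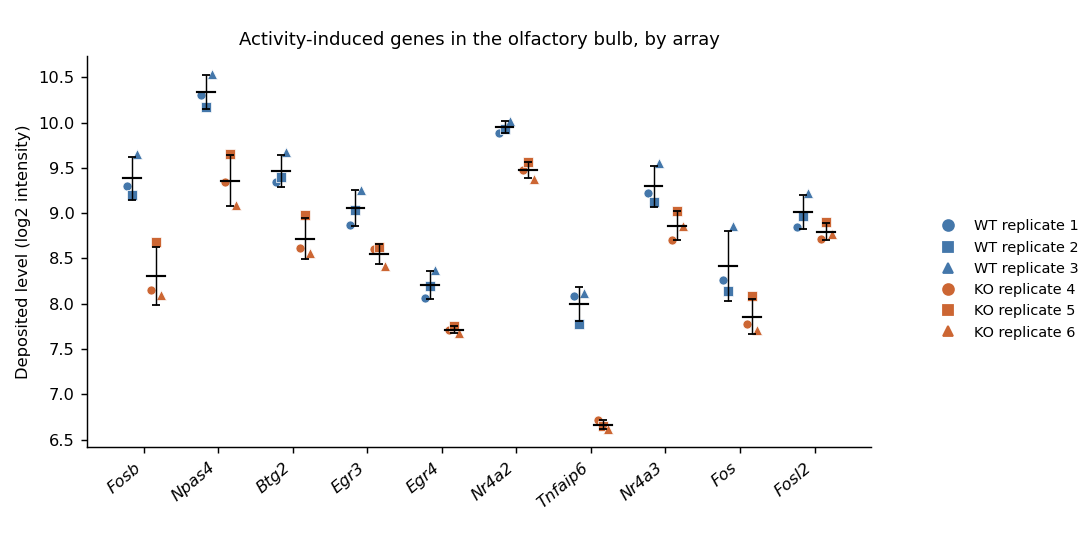
Levels of activity-induced genes in each bulb array (vertical axis, log2 intensity), with wild type in blue and knockout in orange, 1 symbol shape per replicate, bars at the mean of 3 and whiskers of 1 SD. In Fosb, Npas4 and Btg2 wild-type replicate 3 lies highest and knockout replicate 5 lies nearest to wild type, while the Tnfaip6 groups stand apart by more than 1 unit.

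Averaged over the 26 factors, including the 6 that fell, the wild-type arrays stood at -0.099, -0.049 and 0.15 around their mean and the knockout arrays at -0.28, -0.14 and -0.34 below it. Leaving out wild-type replicate 3 changed the median from -0.11 to -0.066 and left 0 members called, and 0 were also called without wild-type replicate 2, without knockout replicate 4 or 6, or when every probe set was tested. With the animal as a replicate block 4 were called. The calls of Fosb, Npas4, Egr3, Egr4, Btg2 and Nr4a2 held under 9, 8, 10, 10, 11 and 7 of 17 alternatives.

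Tnfaip6, a secreted protein that binds and crosslinks hyaluronan and that neuronal activity can induce, was the effector gene that fell. It read 8.09, 7.78 and 8.12 in wild type and 6.72, 6.65 and 6.62 in knockout, a difference of -1.33 (SE 0.124, limma adjusted p = 7.99e-05), or 2.52-fold, and was called under all 17 alternatives. Unlike in Fosb, Npas4 and Btg2, wild-type replicate 3 lay close to wild-type replicate 1 in Tnfaip6. In the gene order Tnfaip6 and Nr4a2 lie within 10 measured genes of each other. Among effectors that did not pass, Fbxo33 differed by 0.32 (limma adjusted p = 0.13), Ccn1 by -0.29 (0.281) and Gadd45b by -0.35 (0.306). Of 32 hyaluronan matrix genes Tnfaip6 was the single one called.

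None of 21 Ras GTPases, 18 Ras exchange factors, 17 Ras GAPs, 34 genes of the MAP kinase cascade, 30 of the PI3K, Akt and mTOR pathway or 26 calcium and calmodulin kinases passed the test. Of the Ras GTPases 15 lay below 0, with a median of -0.064 (-0.088 with cyclic loess), and the knockout arrays, at -0.055, -0.056 and -0.096, lay under the wild-type arrays, at -0.031 to 0.021. The calcium and calmodulin kinases had 19 below 0 and a median of -0.043 (-0.044). Rasgrf1, the closest relative, chosen after its values were seen, differed by 0.02 (SE 0.0718). Of 37 genes of cAMP, protein kinase A and C signalling 28 lay above 0 with a median of 0.057 (0.038 with cyclic loess), none was called, and Adcy6, an adenylyl cyclase, differed by 0.27 (limma adjusted p = 0.103). In the CREB family none of 13 passed, and Creb3 differed by 0.39 (limma adjusted p = 0.0698).

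Of 25 ERK feedback genes, which ERK signalling induces and many of which damp it, 2 fell and none rose. Dusp4, a phosphatase that inactivates ERK and JNK, read 7.21, 7.40 and 7.22 in wild type and 6.84, 6.68 and 6.83 in knockout (-0.49, SE 0.0895, limma adjusted p = 0.0294, called under 10 of 17 alternatives). Ccnd1, cyclin D1, which drives cells from G1 into S phase, read 9.03, 9.12 and 8.91 against 8.61, 8.58 and 8.51. Its difference was -0.45 in bulb and -0.94 in hippocampus, and these did not differ from each other past the threshold (limma adjusted p = 0.228). The list as a whole split 14 above 0 and 11 below, with a median of 0.013 (-0.02 without wild-type replicate 1), and Dusp9 (-0.33) and Spred2 (0.25) did not pass. Gsr, glutathione reductase, which keeps glutathione reduced, lies within 10 measured genes of Dusp4 and fell by 0.50 from 9.07, 8.78 and 8.72 to 8.44, 8.34 and 8.30.

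Among genes listed for the bulb's neurons single members moved and the lists did not move as a whole. Of 36 interneuron fate factors 1 rose and 22 lay below 0, with a median of -0.025. Dlx5, a homeobox factor needed for bulb interneurons to form, read 9.72, 9.53 and 9.32 in wild type and 10.47, 10.28 and 10.33 in knockout. The lowest knockout value exceeded the highest wild-type value, and the rise of 0.84 (SE 0.107, limma adjusted p = 0.00117), or 1.79-fold, was called under all 17 alternatives. Dlx6, its partner in the same gene pair, chosen after its values were seen, differed by 0.19 (limma adjusted p = 0.424). Ica1, a BAR-domain protein of secretory granules that lies within 10 measured genes of Dlx5, fell by 0.61 from 9.58, 9.36 and 9.39 to 8.76, 8.59 and 9.16. Nfix (-0.36) and Lhx2 (-0.22) did not pass.

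None of 28 granule cell genes and none of 29 genes of young and migrating neurons passed, with 11 and 16 above 0. Of 25 periglomerular and dopaminergic genes 1 rose and 1 fell. Pts, the synthase that makes the cofactor tetrahydrobiopterin for tyrosine hydroxylase, read 6.18, 6.39 and 6.23 in wild type and 6.95, 6.81 and 6.91 in knockout (0.63, SE 0.115, limma adjusted p = 0.0309). Nr4a2, described above, was the one that fell, and Ddc, which makes dopamine from L-DOPA, differed by 0.22 (limma adjusted p = 0.354). Th differed by 0.12 (SE 0.111). Of 31 mitral and tufted cell genes 1 fell, and the median moved between 0.016 and -0.011 with the scaling. Cntn4, contactin 4, an adhesion molecule that guides sensory axons to their glomeruli, read 8.42, 8.48 and 8.31 in wild type and 7.91, 7.84 and 7.89 in knockout. This fall of 0.52 (SE 0.0732, limma adjusted p = 0.00325) was called under all 17 alternatives, and in hippocampus the difference was 0.0, although the difference between the tissues did not pass (limma adjusted p = 0.17). Eomes, a factor of mitral and tufted cells, differed by 0.36 and Rph3a, a vesicle protein, by -0.34, and neither passed.

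**Figure D3:**
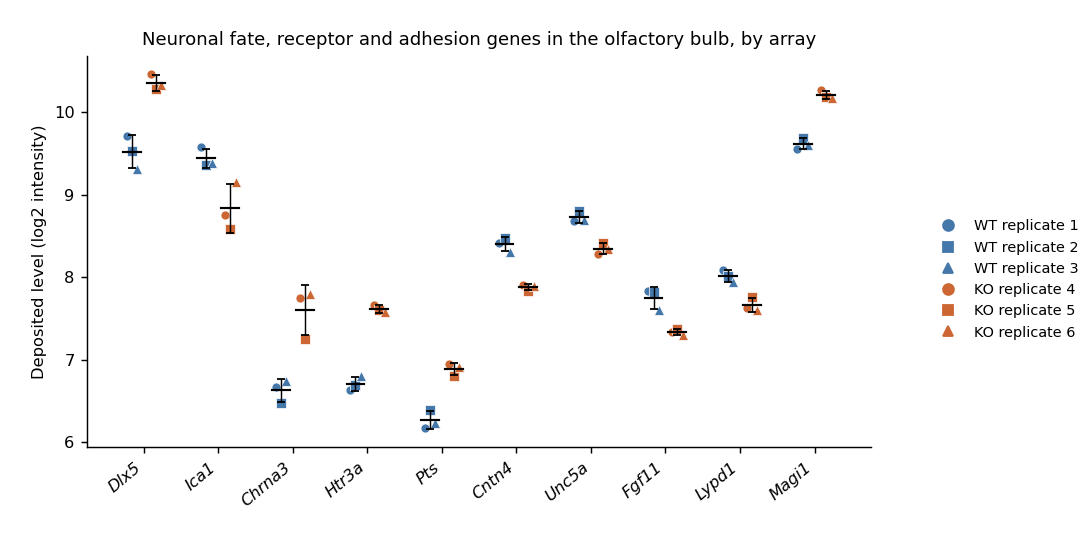
Levels of fate, receptor, guidance and adhesion genes in each bulb array (vertical axis, log2 intensity), with wild type in blue, knockout in orange, bars at the mean of 3 and whiskers of 1 SD. Dlx5, Chrna3, Htr3a, Pts and Magi1 lie higher in knockout and Ica1, Cntn4, Unc5a, Fgf11 and Lypd1 lower, with no overlap of the groups.

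Among neurotransmitter receptors 2 genes rose. Chrna3, the alpha 3 subunit of nicotinic acetylcholine receptors, read 6.67, 6.48 and 6.75 in wild type and 7.75, 7.25 and 7.80 in knockout. Its rise of 0.97 (SE 0.118, limma adjusted p = 0.000749), or 1.96-fold, was called under all 17 alternatives, and the hippocampal difference was 0.26, which did not differ from that of the bulb past the threshold (limma adjusted p = 0.309). Chrna5 and Chrnb4, subunits that assemble with it and were chosen after their values were seen, differed by -0.06 and 0.01. Htr3a, the subunit that forms the serotonin-gated channel of interneurons, read 6.64, 6.69 and 6.80 against 7.67, 7.60 and 7.58 and rose by 0.90 (SE 0.0868). Lypd1, an anchored prototoxin-like protein that binds nicotinic receptors, read 8.09, 8.02 and 7.94 against 7.63, 7.76 and 7.60 and fell by 0.36 (limma adjusted p = 0.0468, called under 9 of 17 alternatives).

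Other receptor and channel groups held no call. These were 16 GABA receptor genes, 33 AMPA, kainate and NMDA receptor genes, 6 metabotropic glutamate receptors, 17 calcium channel, 12 sodium channel and 91 potassium channel genes. Of 28 genes of acetylcholine receptors and synthesis 18 lay below 0, and of 19 serotonin genes 12. The median levels of these lists, 6.47 and 6.72, lie in a class where 66.9% of all genes lay below 0. Chrna3 and Htr3a were their single called members. Htr4 differed by -0.38 and Htr2c by -0.41, without passing. Of 51 neuropeptides 40 lay below 0 with a median of -0.087 (-0.055 with cyclic loess), and of 53 neuropeptide receptors 38 with -0.07 (-0.047). None of these was called, Npw (-0.29) and Grp (-0.45) included.

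Genes of axon guidance, adhesion and scaffolds changed singly. Unc5a, a netrin receptor that mediates repulsion, read 8.68, 8.81 and 8.70 in wild type and 8.28, 8.42 and 8.35 in knockout (-0.38, SE 0.0667, limma adjusted p = 0.0221) and was the one of 71 guidance genes that was called. Neo1, another netrin receptor, differed by -0.28 (limma adjusted p = 0.063) with groups that did not overlap, and Slit1 by -0.22 (0.257). Magi1, a scaffold of cell junctions and synapses, rose by 0.59 from 9.56, 9.69 and 9.61 to 10.27, 10.19 and 10.17 and was called under all 17 alternatives. Fgf11, an intracellular FGF that binds sodium channels, fell by 0.42 from 7.84, 7.82 and 7.60 to 7.34, 7.37 and 7.30. Igsf10, an immunoglobulin superfamily protein, fell by 0.34. The calls of Unc5a, Fgf11 and Igsf10 held under 12, 11 and 6 of 17 alternatives. Of 59 synaptic adhesion genes Cntn4 was the one called, and its relative Cntn3 differed by -0.25 (limma adjusted p = 0.257).

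The beta protocadherins, a cluster of cell surface adhesion genes of which each neuron expresses a few, lay higher in knockout as a family. Of 22 measured, 2 rose, 21 lay above 0 and the median was 0.20, at 0.21 with cyclic loess. At an unadjusted p under 0.05 there were 12 higher and 0 lower, where 4.7% of all genes were higher at that level. Pcdhb2 read 7.44, 7.57 and 7.59 in wild type and 8.19, 8.19 and 8.12 in knockout (0.63, SE 0.0913, limma adjusted p = 0.00441), and Pcdhb3 7.17, 7.37 and 7.0 against 7.85, 7.51 and 7.97 (0.60, adjusted p = 0.0345). Both rose, and knockout replicate 5 lay nearest to wild type in Pcdhb3. Pcdhb16 (0.37, limma adjusted p = 0.0685), Pcdhb13 (0.33, 0.0931) and Pcdhb9 (0.46, 0.193) did not pass, and Pcdhb5 differed by -0.07. Relative to the mean of wild type, the family average stood at 0.27, 0.18 and 0.26 in the knockout arrays and between -0.037 and 0.029 in the controls. The family median kept its sign under all 17 alternatives, at 0.17 to 0.23, and was 0.20 in hippocampus of the same animals. These genes lie side by side and resemble each other in sequence, so probes that match several of them could link their values, and they are not independent. Of 35 other protocadherins and cadherins none was called and 16 lay above 0. The name patterns of the alpha and gamma protocadherins matched none of the genes compared, so whether they moved with the beta genes was not examined.

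**Figure D4:**
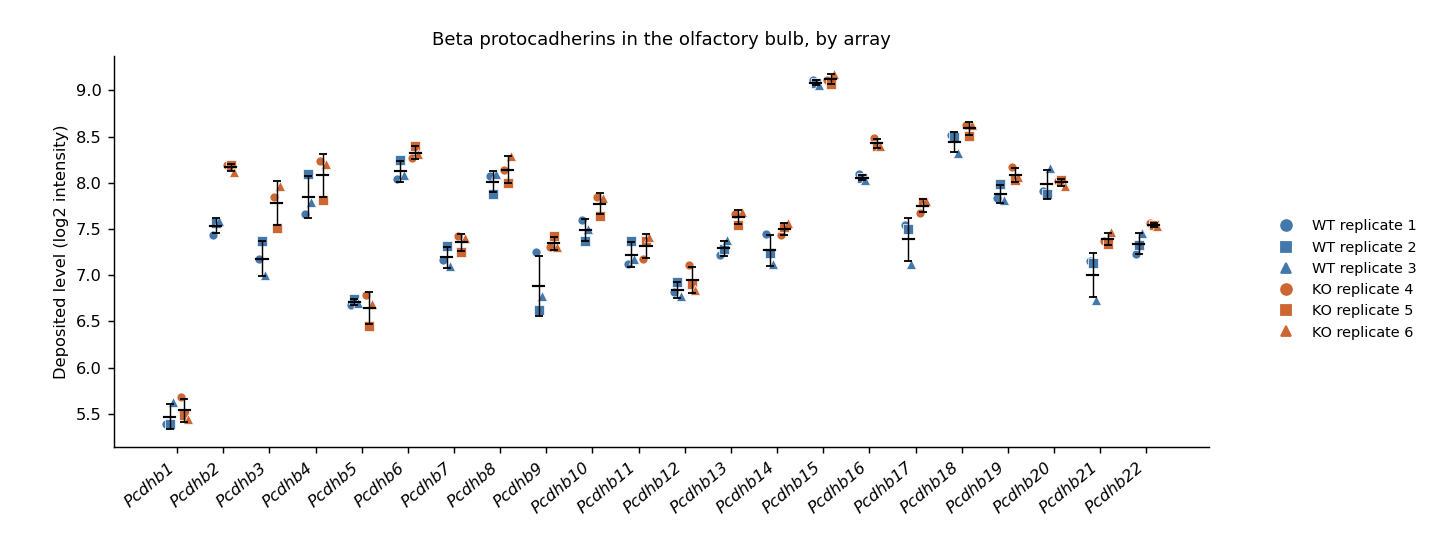
Levels of the 22 beta protocadherins in each bulb array (vertical axis, log2 intensity), with wild type in blue, knockout in orange, bars at the mean of 3 and whiskers of 1 SD. The knockout means lie above the wild-type means in 21 genes, with the widest gaps at Pcdhb2 and Pcdhb3 and with Pcdhb5 the other way.

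The stem cell list held 1 call, which fell, the astrocyte list 1, which rose, and the oligodendrocyte lists none. Because whole bulb was read, fewer cells of a type and less RNA per cell cannot be told apart. In the list of stem cells and radial glia 15 of 22 genes lay below 0, with a median of -0.094 (-0.08 with cyclic loess, -0.06 without wild-type replicate 1). Id4, which sequesters helix-loop-helix factors and is made by stem cells and astrocytes, fell from 8.30, 8.36 and 8.38 to 8.08, 8.03 and 7.90 (-0.34, SE 0.0651, limma adjusted p = 0.0375, called under 9 of 17 alternatives). Hopx (-0.32), Vim (-0.46) and Gfap (-0.33) did not pass. Of 18 oligodendrocyte precursor genes 14 lay below 0 and none was called, with a median of -0.086 (-0.077 with cyclic loess) and array means of -0.044, -0.11 and -0.16 in knockout against 0.03, 0.014 and -0.044 in wild type. Of 21 myelin genes 15 lay below 0 with a median of -0.091 (-0.096 with cyclic loess, -0.061 without knockout replicate 6). The knockout arrays stood at -0.052, -0.027 and -0.15 and the wild-type arrays at -0.039, 0.027 and 0.012, so the groups overlapped. The hippocampal median of these genes was 0.18, and none of them passed the test of the difference between tissues. Ermn, a myelin protein, differed by -0.31 in bulb.

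Etnppl, an astrocyte enzyme that breaks down phosphoethanolamine, rose by 0.68 from 7.51, 6.96 and 7.40 to 7.92, 8.04 and 7.93 (SE 0.134, limma adjusted p = 0.0443, called under 9 of 17 alternatives). It was the one of 30 astrocyte genes called, and 20 of them lay below 0. Slc14a1, a urea transporter that astrocytes also make, fell by 0.45 from 8.99, 9.13 and 9.12 to 8.62, 8.54 and 8.73. Epas1, the hypoxia-inducible factor HIF-2 alpha of endothelium and astrocytes, fell by 0.40 from 10.46, 10.49 and 10.35 to 10.02, 9.98 and 10.12 (limma adjusted p = 0.0309). None of 28 endothelial, 20 pericyte or 32 meningeal genes was called, and 20, 17 and 25 of them lay below 0. Their medians were -0.085, -0.083 and -0.07 (-0.076, -0.072 and -0.065 with cyclic loess). In 10, 4 and 2 of them every knockout value lay under every wild-type value, against 8.87% of all genes. The meningeal list spread widely among wild-type arrays, at 0.13, 0.068 and -0.19. Of 39 genes of olfactory sensory neurons and nasal mucosa none was called and 25 lay below 0, and wild-type replicate 1 stood at 0.15 against -0.047 and -0.10 in the other wild types and -0.11, -0.14 and -0.061 in knockout. Cyp2f2, a mucosal enzyme, read 6.69 in that array and 5.71 to 6.16 in the others, and its part in other genes was not tested.

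In several families of protein synthesis and mitochondria most members lay above 0, with few single calls. Of 74 mitochondrial ribosomal proteins 59 lay above 0, with a median of 0.09 (0.079 with cyclic loess), but none was called. At an unadjusted p under 0.05, 14 were higher and 0 lower, where 4.7% of all genes were higher and 6.56% lower. Of 60 cytosolic ribosomal proteins 45 lay above 0 with a median of 0.072 (0.056), which was 0.042 without knockout replicate 6, 0.11 without knockout replicate 4 or wild-type replicate 2, and -0.031 in hippocampus. Of 35 complex I subunits 28 lay above 0 with a median of 0.077 (0.07), 9 being higher and 0 lower at that unadjusted level. Without wild-type replicate 2 the complex I median was 0.12. Of 39 proteasome subunits 28 lay above 0 with a median of 0.059, and 25 with a median of 0.042 after cyclic loess. Of 44 subunits of complexes II to V 31 lay above 0 with a median of 0.03 (0.02), and of 49 translation initiation factors 26, with a median of 0.01 that was -0.0043 with cyclic loess. In complex I the knockout arrays stood at 0.075, 0.12 and 0.14 and the wild-type arrays at -0.032, 0.039 and -0.0078. The mitochondrial and cytosolic ribosomal proteins, complex I and the proteasome are bright on the array, at median levels of 8.15 to 9.77, and lie where the medians of all genes were 0.024 and 0.018.

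Rps2, a protein of the small ribosomal subunit, read 10.95, 11.02 and 10.93 in wild type and 11.60, 11.60 and 11.49 in knockout (0.60, SE 0.0692, limma adjusted p = 0.000495), called under all 17 alternatives. Ndufb10, a complex I subunit, read 7.65, 7.46 and 7.56 against 8.0, 8.07 and 7.95 (0.45, adjusted p = 0.011 by limma). The genes Rps2 and Ndufb10 are adjacent in the gene order, and Rps2 also has many near-identical processed copies, so its probe set may read more than 1 locus. Mettl17, a factor of mitochondrial ribosome assembly, rose by 0.55 from 7.60, 7.65 and 7.66 to 8.15, 8.20 and 8.20 and is adjacent to the zinc transporter gene Slc39a2, which rose by 0.90. Rps25 (0.40), Mrpl23 (0.32), Ndufa1 (0.32) and Psma6 (0.35) did not pass.

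Srp14, a subunit of the signal recognition particle, which sends new proteins to the endoplasmic reticulum, rose by 0.52 from 8.07, 7.92 and 7.75 to 8.34, 8.57 and 8.41, and Srpr, its receptor, by 0.42 from 8.66, 8.75 and 8.69 to 9.03, 9.23 and 9.10. They were set side by side after their values were seen, and their calls held under 9 and 12 of 17 alternatives. Rnps1, a splicing activator of the exon junction complex, rose by 0.51 (SE 0.0701, limma adjusted p = 0.00307, under all 17 alternatives), and Rnmt, the cap methyltransferase, rose by 0.44. Dctn5 of the dynactin complex rose by 0.39, Rusc2, an adaptor of vesicle transport, by 0.45, and Ufc1, which conjugates UFM1 to proteins, by 0.41. Zfyve26, a protein of lysosome recycling, rose by 0.37, Tax1bp3, a small PDZ protein, by 0.42 and Samsn1, an adaptor of lymphocytes, by 0.43.

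Metabolic genes changed in both directions. Of 42 genes of branched-chain and fatty acid breakdown 2 were called. Adhfe1, a transhydrogenase of hydroxybutyrate, fell by 0.75, and Ivd, which oxidises isovaleryl-CoA from leucine, fell by 0.62. Nfu1, a carrier of iron-sulfur clusters to mitochondrial enzymes, fell by 0.39 from 9.79, 10.07 and 9.96 to 9.56, 9.53 and 9.55. Akr1c14, a steroid dehydrogenase, fell by 0.64 from 5.92, 6.11 and 5.70 to 5.31, 5.17 and 5.32 (SE 0.104, limma adjusted p = 0.0119). St6galnac3, which adds sialic acid to glycolipids and proteins, fell by 0.38. Cryab, a small heat shock protein, rose by 1.02 from 8.65, 8.43 and 8.35 to 9.50, 9.47 and 9.52 and was the one of 38 chaperone genes called, in a list with 27 above 0 and a median of 0.082 (0.063 with cyclic loess, 0.051 without knockout replicate 5). None of 43 phospholipase A2 and eicosanoid genes other than Pla2g4e was called, and Alox5 differed by -0.34 (limma adjusted p = 0.101).

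Cell division genes included both a fall and a rise among those that hold sister chromatids together. Of 23 securin, separase and cohesin genes Pttg1, securin, fell from 7.41, 7.62 and 7.99 to 5.94, 5.94 and 6.05, and Esco1, the acetyltransferase that locks cohesin, rose from 8.45, 8.28 and 8.46 to 9.37, 9.38 and 9.44. The groups stood apart in both, at -1.7 (SE 0.127) for Pttg1 and 1.00 (SE 0.106) for Esco1. Haus2, an augmin subunit of the spindle that the list also holds, fell by 0.54, and Haus4 differed by -0.29 (limma adjusted p = 0.106). Of 29 meiosis and germ cell genes 3 fell, Mcmdc2, Ccnb1ip1 and Ddx4, and 20 lay below 0. The median of the list was -0.089 (-0.05 with cyclic loess). That list was written with earlier results of these data known. Its median level of 5.47 lies in the dimmest class, where 72.0% of all genes lay below 0. None of 37 genes of S phase and mitosis was called, although Bub1b, a spindle checkpoint kinase, differed by -0.96 (limma adjusted p = 0.0706), with a wild-type replicate 3 of 7.22 against 6.12 and 6.15.

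The largest fall in bulb was that of Mid1, a microtubule-bound ubiquitin ligase that controls protein phosphatase 2A, from 10.53, 10.65 and 10.38 to 8.11, 8.24 and 7.97 (-2.41, SE 0.0903, limma adjusted p = 1.67e-09), and none of the other genes on its list of 21 relatives and partners was called. Slc38a6, an amino acid transporter, fell by 1.04 from 8.97, 9.08 and 8.69 to 7.99, 7.79 and 7.84, and Snapc1, a subunit of the complex that starts small nuclear RNA genes, which lies within 6 measured genes of it, fell by 0.63. Both were called under all 17 alternatives.

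Several genes better known from other organs also fell in bulb. Strc, stereocilin of inner ear hair bundles, fell by 0.63 from 6.54, 6.41 and 6.51 to 5.99, 5.89 and 5.69 (limma adjusted p = 0.00637). Cabyr, a calcium-binding protein of the sperm tail, fell by 0.65 from 6.20, 6.44 and 6.16 to 5.62, 5.67 and 5.57. Tfap2d, an AP-2 transcription factor, fell by 0.48, Gnat1, rod transducin alpha, by 0.39 and Tshr, the thyrotropin receptor, by 0.31. Tshr read 5.37, 5.42 and 5.43 in wild type and 5.11, 5.09 and 5.08 in knockout. Tshr and Gnat1 are dim, and their calls held under 4 and 5 of 16 alternatives. Ttc8, a subunit of the BBSome that carries receptors into cilia, fell by 0.46, and Chp1, a calcineurin-like protein that supports sodium-proton exchange, by 0.45 from 9.87, 9.92 and 9.75 to 9.54, 9.25 and 9.40.

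Part of the called genes lay near another called gene. Of the 82, 32 had another called gene among the 10 nearest measured genes on either side, in 14 groups. The share of all genes with a called gene that near was not counted, so the 32 have no background beside them. The largest group held Greb1l, Esco1 and Riok3, which rose, and Cabyr, which fell, within 17 measured genes. Klhl33, Ccnb1ip1 and Parp2, a DNA repair enzyme, fell within 4 measured genes. In 9 groups the members moved one way and in 5 both ways. A longer stretch, chosen after the values were seen, runs from Srp14 to Strc on a single chromosome, where 7 of 71 measured genes were called. Both of its ends were set at called genes, which raises this share by construction. It therefore cannot be read against the 0.411% of all genes. The stretch holds Ivd, Chp1, Haus2 and Strc, which fell, and Srp14, Pla2g4e and Zfp106, which rose.

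In 3 families of the dimmer level classes most members lay below 0. Of 1027 olfactory receptors, whose genes sensory neurons of the nose express, none was called and 778 lay below 0, with a median of -0.064 that was -0.031 after cyclic loess and -0.035 without wild-type replicate 3. Of 44 collagens 41 lay below 0 with a median of -0.11 (-0.082), and none was called. The knockout arrays stood at -0.032, -0.099 and -0.20 and the wild-type arrays at -0.031, -0.04 and 0.07, so the groups overlapped, and without knockout replicate 6 the median was -0.068. Of 52 keratins 42 lay below 0 with a median of -0.094 (-0.044). Without knockout replicate 6, which stood at -0.19 against -0.035 and -0.032 in the other knockouts, the keratin median was -0.03 with 23 above 0 and 29 below. Their median levels of 4.69, 7.0 and 6.01 fall in the dimmer 2 level classes, where the medians of all genes were -0.056 and -0.052.

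**Figure D5:**
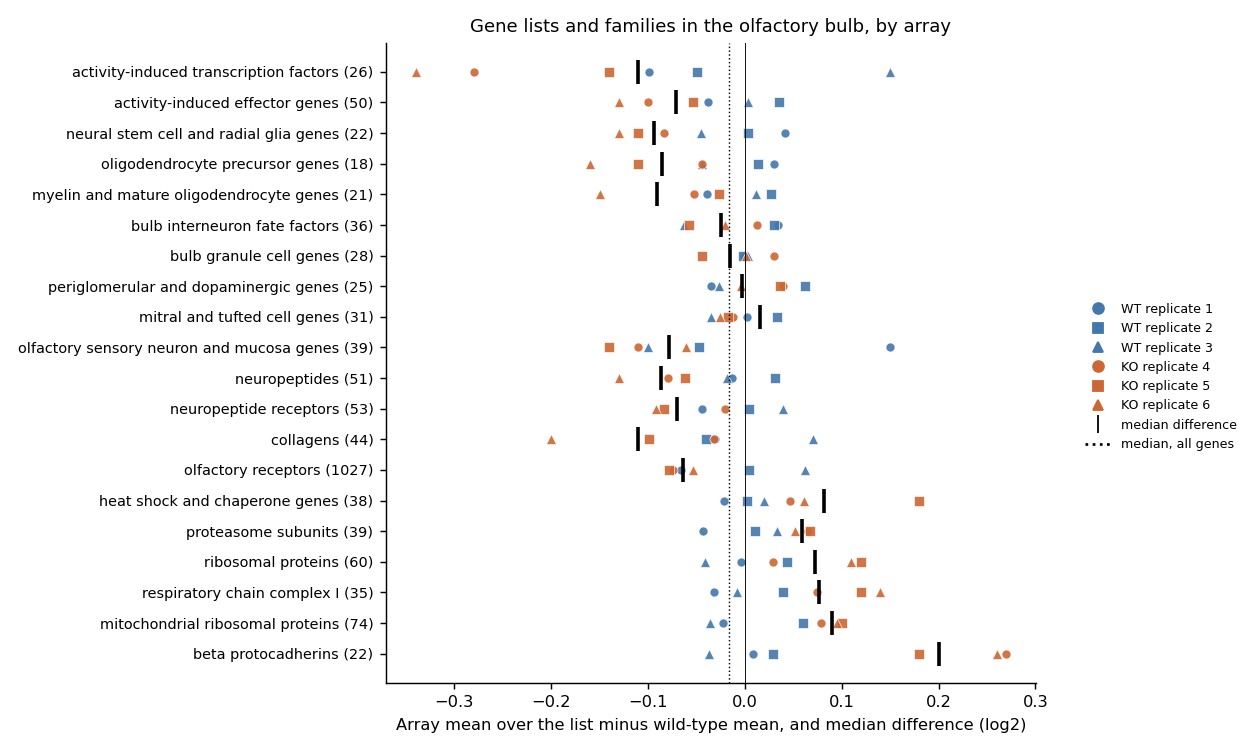
Mean of each bulb array over a list, relative to the mean of the wild-type arrays (horizontal axis, log2), for 20 lists with the number of measured genes in parentheses; wild type is blue, knockout orange, the black tick is the median of the members' differences and the dotted line that of all genes, at -0.016. The 3 knockout arrays lie apart from the 3 wild-type arrays in, for example, the beta protocadherins, the mitochondrial ribosomal proteins and the activity-induced factors, and mix with them in the granule, periglomerular and mitral lists.

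The difference of effects between bulb and hippocampus was called for 3 genes (0.015% of those tested). Pla2g4e, a phospholipase A2 that makes lipid messengers, rose more in bulb, from 6.48, 6.81 and 6.91 to 8.98, 9.05 and 9.0, by 2.27 against 1.21 in hippocampus (difference 1.06, SE 0.129, limma adjusted p = 0.00875). Armh4, a membrane protein, rose in bulb from 8.60, 8.59 and 8.46 to 9.08, 8.87 and 9.06, by 0.45, and its hippocampal difference was -0.54 (difference 1.00, SE 0.123). Sv2c, a synaptic vesicle protein, read 9.58, 9.80 and 9.84 against 9.59, 9.51 and 9.6 in bulb, where the groups overlapped and its difference of -0.18 did not pass (difference 0.94, limma adjusted p = 0.0318). Of the 82 genes called in bulb, 73 had the same sign in hippocampus, of the same animals. The share of all genes with the same sign in both tissues was not counted, so the 73 have no background beside them. The 9 called genes with the other sign were Armh4, Chp1, Cntn4, Epas1, Fgf11, Gnat1, Samsn1, Tax1bp3 and Tfap2d, all but Armh4 with hippocampal differences between -0.09 and 0.10.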

How the data were processed

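Total RNA of the olfactory bulb and hippocampus was read on 1-colour microarrays, a single array for each sample, per the labels' protocols. The authors deposited 1 log2 intensity per probe set and sample, made with RMA and the oligo package per the submitters' processing notes. RMA corrects background, normalizes quantiles between arrays and compresses differences near background. The sources used here give no versions or genome build. Of 35556 probe sets, 21789 had 1 gene symbol in the platform's annotation, 1621 several, and 12146 were not listed. 21698 were found in RefSeq's gene table (assembly GRCm38.p6), used for symbols, synonyms and gene order.

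A model of 4 group means over all 12 arrays was fitted with limma 3.58.1 in R 4.3.3 (lmFit and eBayes, Benjamini-Hochberg over 19938 genes at 0.05), without a filter on low values. The bulb groups hold different animals, and 3 arrays a group limit the precision. The wild-type animal codes and title numbers pair the tissues differently, and deviations of the same animal's tissues correlated at -0.255 to 0.116 by code. Pipeline steps were tested on simulated data. The 81 lists and 62 families, the members and the tests were chosen with earlier results of these data known. No set test was run. Many of the lists without a call are not described. Named genes are Rasgrf2, from each list its called members (at most 8) and up to 3 others of smallest p, and of called genes in no list the 15 largest changes each way. Clone, predicted, small RNA and chemoreceptor names are counted only. Alternatives changed the arrays fitted, moderation, weights, scaling, dim genes, probe sets and a replicate block, and left out each bulb array. Plots came from matplotlib 3.10.9. All columns of values were used.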

Additional observations from a re-analysis of the deposited data

Results flagged for a closer look

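The knockout effect differed between the tissues for Pla2g4e by 1.06, for Armh4 by 1.00 and for Sv2c by 0.94 (bulb minus hippocampus, log2, limma's interaction test). Among probe sets that carry no single gene symbol and stand outside the gene comparison, 54 were higher and 5 lower in knockout bulb when every probe set was tested. These 59 are 0.429% of the 13767 such probe sets, against 45 of 21789 with 1 symbol. Of the 59, 27 are not listed by the platform's annotation and 32 carry several symbols, and their differences ran from -1.05 to 2.79. Groups of 3 arrays are too small for a test of single outlying arrays.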

How the results depend on the processing

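The model gave 82 called genes, 37 higher and 45 lower. Fitting the bulb arrays alone gave 36 (18 higher, 18 lower), moderation with trend and robust settings 136 (71 higher), testing every probe set 41 (22 higher, 19 lower). Leaving out 1 array gave 35 to 105 genes, 17 to 36 higher and 14 to 69 lower. Array weights (88), median centring (75), quantile normalization again (92), leaving out dim genes (83), the mean of probe sets (81) and cyclic loess (94, added after the data were seen) stayed within 1.5 times. With the animal code as a replicate block 80 genes were called, with the title number 83, at block correlations of -0.0697 and -0.0316. The block ties the tissues of an animal and does not pair wild type with knockout. Of 1250 refits of the 74 called genes with a reported name, 343 lost the call and 0 changed sign. The medians of 17 lists, a part of all lists, were refitted under 17 settings. Of these 289 medians, 1 changed sign, that of ERK feedback genes without wild-type replicate 1. In addition 1 moved by more than the spread of arrays, that of complex I, at 0.12 without wild-type replicate 2. Among the lists left out of this check, several medians near 0 changed sign with the scaling alone. That of the Ras GAPs was 0.0012 in the model and -0.018 with cyclic loess. The number of arrays limits the precision, and values near background are compressed.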

Other observations

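Of 34 microglia and macrophage genes, 35 interferon response genes and 43 complement and cytokine genes none passed, with 17, 22 and 15 above 0. Serpina3n, an acute-phase inhibitor of reactive astrocytes, differed by 0.41 (limma adjusted p = 0.13). Of 53 genes of the Wnt pathway 37 lay below 0, and Sfrp1, a secreted Wnt antagonist, read 8.55, 8.09 and 7.52 in wild type and 7.56, 7.42 and 7.54 in knockout, so the groups overlapped. Cat, catalase, differed by -0.37 (limma adjusted p = 0.151). Rbl2, a retinoblastoma relative that restrains the cell cycle, differed by 0.40 (limma adjusted p = 0.0928), with the lowest knockout value at 8.76 and the highest wild-type value at 8.50.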
